A study of Mus musculus with 16 samples.

Results

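The genes described here are 8 activity-induced genes, Egr1, Egr2, Egr3, Nr4a1, Nr4a2, Npas4, Arc and Klf4. They were taken by gene symbol from the annotation of the array and make up 8 of the 19505 named genes, or 10 of the 22206 probe sets tested. Egr3 has 3 probe sets, named the first, the second and the third by mean level, and each of the others has 1. The array's identifiers label the first and the second Egr3 probe set as unmapped, and the third carries no such label. The samples came from S100a5-tauGFP mice, in which the promoter of S100a5, a calcium-binding protein gene of olfactory sensory neurons, drives a green fluorescent protein. The mice, 24 of both sexes aged 7 to 12 weeks, were kept singly in clean air at 3.1 L per min for 40 h. From 26 h on they received a 10 s pulse every 20 min, either of the ketone 2-hexanone (the odor groups) or of filtered air (the vehicle groups). Olfactory mucosa of 3 mice made 1 pool, and cell sorting split each of the 8 pools into GFP+ and GFP- cells, which gave 4 groups of 4 Clariom S arrays: vehicle GFP+, vehicle GFP-, odor GFP+ and odor GFP-. All groups carry the reporter, and its strain background is not given in the sources used here. GFP+ cells are those in which the S100a5 promoter was active. The sources used here give no sort gates, so which cells of the dissociated mucosa the GFP- samples kept is known only from their marker genes.

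Immediate early genes are transcribed within minutes of a stimulus from factors already present in the cell, without new protein synthesis. Calcium and kinase signals reach them through serum response factor at CArG boxes, and through CREB at cyclic AMP response elements (CRE). In neurons these genes serve as markers of recent firing, but growth factors, inflammatory signals and tissue dissociation also induce most of them, in leukocytes and epithelial cells too. Egr1, Egr2 and Egr3 encode zinc-finger transcription factors, Nr4a1 and Nr4a2 encode orphan nuclear receptors, Npas4 encodes a calcium-dependent transcription factor largely restricted to neurons, Arc encodes a synaptic protein that acts in receptor endocytosis, and Klf4 encodes a Krüppel-like zinc-finger factor.

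Values are the deposited log2 signals per array. The highest value of the table, 19.81, lies above what a 16-bit scanner can record, so differences and folds are on a scale that was transformed in a way not stated. The brightest background probes gave each array a floor, between 6.16 and 7.33. The targeted reporter gene, S100a5, was higher in GFP+ than in GFP- cells by 1.38 ± 0.25 (log2 difference ± SE, n = 4 pools per group) in vehicle and by 1.61 ± 0.25 in odor. Omp, a gene of mature olfactory neurons, differed by 0.01 ± 0.14 and 0.09 ± 0.14, and all 11 mature neuron markers lay above the floor on every array of both fractions. Omp read 19.36 to 19.45 in the group means, near the highest value of the table, and whether differences are compressed there was not tested. GFP- cells also carried leukocyte markers, whose values stand beside the members' results below.

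Egr1, Egr2, Nr4a1, Nr4a2 and Klf4 were lower in GFP+ than in GFP- cells in both treatments, with log2 differences of -6.59 to -2.74 in vehicle and of -6.98 to -3.10 in odor. Npas4, Arc and the second and the third Egr3 probe set lay under the background floor on all 16 arrays. The first Egr3 probe set lay above it on all 16, at levels of 6.80 to 9.06. In vehicle, 6 of the 10 probe sets were lower and 0 were higher at an adjusted p below 0.05 (limma, Benjamini-Hochberg over all 22206 probe sets). Of all probe sets tested, 9.86% were lower and 5.83% higher. In odor 7 were lower and 1 was higher, against 9.56% and 5.29% of all probe sets. The median difference of the 10 probe sets was -1.82 in vehicle and -2.04 in odor, and that of all probe sets was 0.14 in both. No member passed the threshold between odor and vehicle. GFP+ and GFP- arrays of a treatment did not overlap for the 5 strongly lower genes. These genes were singled out by their large differences, so this is no separate result. The arrays also did not overlap for the third Egr3 probe set in vehicle and for the first and the second in odor. The other member probe sets overlapped. Of all probe sets, 10.0% (vehicle) and 10.6% (odor) had GFP+ arrays wholly below GFP- arrays (19.0% and 20.0% in either direction). In bulk samples, fewer cells that carry a transcript and less transcript per cell cannot be told apart.

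**Figure D1:**
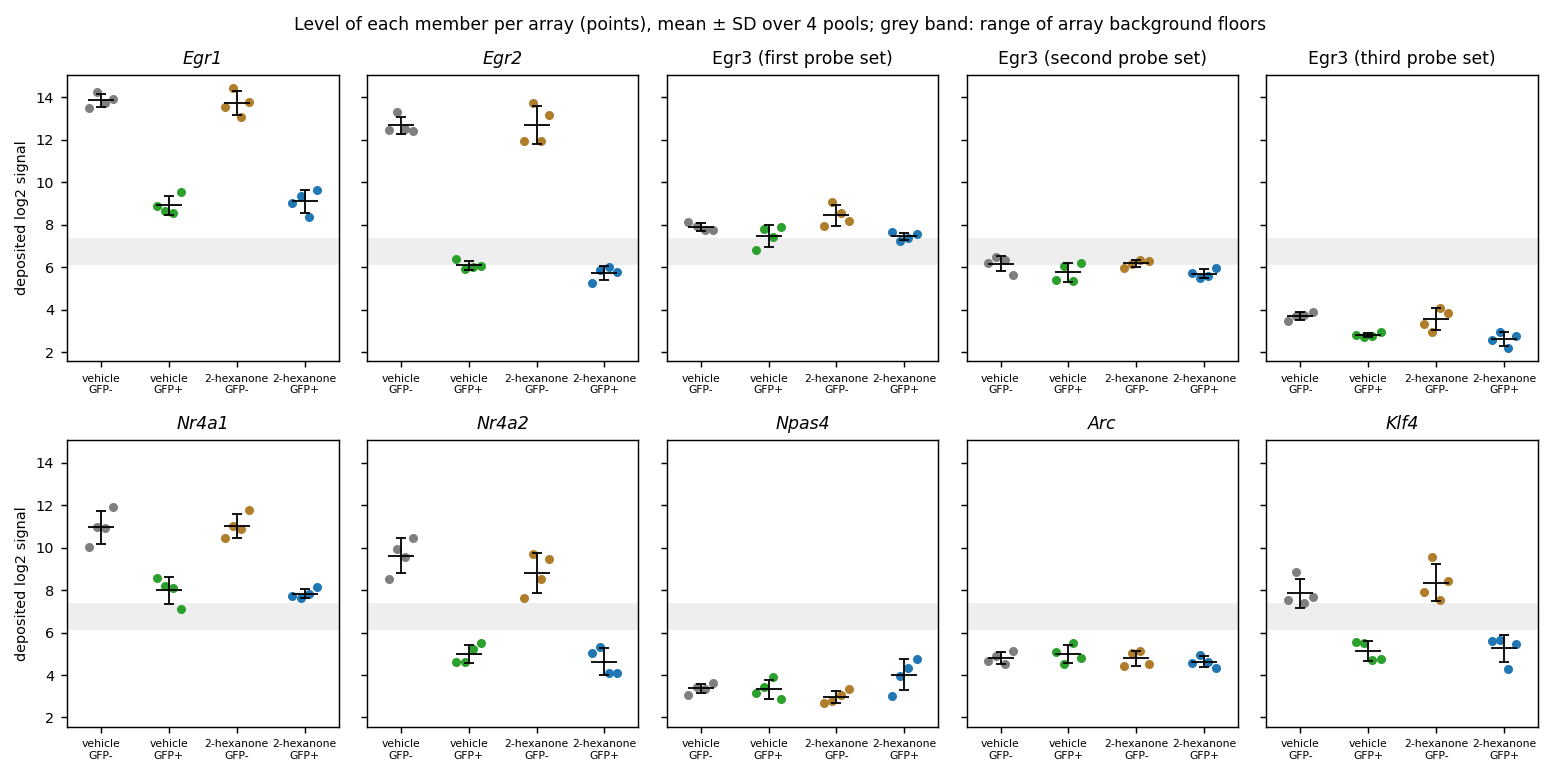
Deposited log2 signal (vertical axis) of each member on every array (points), by group on the horizontal axis, with the mean and SD over 4 pools. The grey band spans the array background floors, 6.16 to 7.33. Egr1, Egr2, Nr4a1, Nr4a2 and Klf4 form 2 separate levels by GFP fraction, while Npas4 and Arc stay under the band on all arrays.

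Promoter sequence was available for 5 of the 8 genes (Egr2, Nr4a1, Nr4a2, Npas4 and Klf4) from RefSeq on build GRCm38.p6, in 9 windows, 5 of them for Egr2. Egr1, Egr3 and Arc have no sequence shown here. The 250 bases before each start were searched on both strands for the CRE half-site (TGACG or CGTCA), the full CRE (TGACGTCA, which overlaps the half-site), the CArG box, the Egr site (GCGTGGGCG or GCGGGGGCG), the Nr4a site (NBRE, AAAGGTCA) and a TATA box (TATAAA or TATATAA). Over 19143 windows of 15691 genes on the array, a CRE half-site was present in 20.9%, at least 2 in 5.01% and at least 4 in 0.193%. A single full CRE counts as 2 half-sites in these shares. The full CRE was present in 1.99%, the CArG box in 1.33%, the Egr site in 4.27%, the NBRE in 1.21% and the TATA box in 12.7%. These motifs were chosen after the sequences had been seen, and a match describes letters only.

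Egr1, the best-known activity marker of the family, had levels of 13.49, 14.26, 13.75 and 13.94 in vehicle GFP- pools 1 to 4 and of 8.91, 8.67, 8.56 and 9.53 in the GFP+ cells of the same pools. In odor the GFP- levels were 13.55, 14.46, 13.10 and 13.79, and the GFP+ levels were 9.0, 9.37, 8.39 and 9.66. The fractions were far apart on every array. The difference was -4.94 ± 0.31 in vehicle (30.8-fold lower in GFP+, adjusted p = 1.56e-09) and -4.62 ± 0.31 in odor (24.6-fold, adjusted p = 3.61e-09). Within pools it ran from -5.59 to -4.41 in vehicle and from -5.10 to -4.13 in odor. Egr1 stayed above the floor in GFP+ cells on all 8 arrays, so a signal remained there. On 4 of those 8 arrays, 2 per treatment, it also exceeded the 95th percentile of the negative control rows, which lay at 8.53 to 9.47.

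Egr2, a zinc-finger factor also known from myelinating glia, fell from bright signals to background. Its levels in GFP- cells were 12.47, 13.30, 12.52 and 12.44 in vehicle and 11.95, 13.74, 11.97 and 13.17 in odor. In GFP+ cells they were 6.41, 5.91, 6.0 and 6.06 in vehicle and 5.25, 5.89, 6.0 and 5.77 in odor. The GFP- arrays were thus bright and the GFP+ arrays sat at or under background, with 1 of 4 vehicle and 0 of 4 odor arrays above the floor. The difference was -6.59 ± 0.34 in vehicle (adjusted p = 1.22e-10), and -6.16 once the arrays under the floor were raised to it. In odor it was -6.98 ± 0.34 (adjusted p = 6.19e-11), at least 63.0-fold lower in GFP+ cells against the floor.

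The following 30 bases of the Egr2 promoter are shown because they hold a CArG box and a CRE half-site (both in capitals), the elements through which immediate early genes are classically induced. They lie at chr10:67537789-67537818 on the plus strand, with the CArG box at positions -72 to -63 and the half-site at -55 to -51 from the nearest RefSeq start.
Egr2: tcctcagtCCATATATGGgcagcgaCGTCA
A CArG box lay in 4 of the 5 Egr2 windows, of which 3 overlapping windows share this site and 1 holds another. It was found in no window of the other members.

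Egr3 did not share the size of the Egr1 and Egr2 differences. Its first probe set read 8.14, 7.93, 7.74 and 7.74 in vehicle GFP- cells and 6.80, 7.79, 7.41 and 7.91 in vehicle GFP+ cells, and the groups overlapped. In odor it read 7.94, 9.06, 8.57 and 8.20 in GFP- cells and 7.64, 7.24, 7.39 and 7.56 in GFP+ cells, which did not overlap. Of these 16 arrays 1 exceeded the stricter limit, and this probe set carries the unmapped label. The difference was -0.41 ± 0.25 in vehicle (adjusted p = 0.316) and -0.99 ± 0.25 in odor (1.98-fold lower, adjusted p = 0.0112). The odor call was lost without odor pool 2 (-0.71, adjusted p = 0.122) or odor pool 3 (-0.92, 0.0686), and with arrays centred on their medians (-0.64, 0.0516). The change of the difference between treatments, -0.58 ± 0.36, did not pass the threshold (adjusted p = 1). The second and the third probe set lay under the floor on all 16 arrays and give no fold. The second differed by -0.41 ± 0.23 and -0.51 ± 0.23 (adjusted p = 0.259 and 0.158), and the third by -0.90 ± 0.23 and -0.93 ± 0.23 (0.0101 and 0.00775). With all values raised to the floor, the third read -0.10 in vehicle (0.711) and 0.02 in odor (0.961), which are the differences between the array floors themselves. In vehicle only the third probe set passed the threshold, on values under the floor. The first, which lay above the floor on all 16 arrays, did not.

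Nr4a1 was bright in GFP- cells and dim in GFP+ cells. It read 10.02, 10.97, 10.93 and 11.93 in vehicle GFP- pools 1 to 4 and 8.58, 8.19, 8.11 and 7.11 in the matching GFP+ cells. In odor it read 10.45, 11.01, 10.87 and 11.78 in GFP- cells and 7.70, 7.65, 7.82 and 8.15 in GFP+ cells. All 16 arrays lay above the floor and the fractions did not overlap. By the stricter limit from the negative control rows, all GFP- arrays but only 1 of 4 vehicle and 0 of 4 odor GFP+ arrays were above background, so the folds below rest on dim GFP+ values. The difference was -2.97 ± 0.37 in vehicle (7.85-fold lower in GFP+, adjusted p = 7.28e-06) and -3.20 ± 0.37 in odor (9.19-fold, 3.04e-06). Within vehicle pools it spread from -4.83 in pool 4, which had the highest GFP- and the lowest GFP+ level, to -1.45 in pool 1, which had the reverse. In odor it spread only from -3.63 to -2.75.

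Nr4a2 read 8.51, 9.93, 9.57 and 10.45 in vehicle GFP- cells and 7.63, 9.69, 8.50 and 9.47 in odor GFP- cells. In GFP+ cells it was under the floor on all 8 arrays, at 4.61, 4.62, 5.24 and 5.49 in vehicle and 5.05, 5.31, 4.08 and 4.11 in odor. By the stricter limit 3 of 4 vehicle and 2 of 4 odor GFP- arrays were above background. The difference was -4.62 ± 0.45 in vehicle (at least 8.91-fold lower in GFP+, adjusted p = 4.25e-07) and -4.19 ± 0.45 in odor (at least 4.27-fold, 1.42e-06). Nr4a3, the remaining family gene and not a member, was also lower, by -4.70 ± 0.49 (at least 6.31-fold lower, 1.09e-06) and -4.88 ± 0.49 (at least 5.05-fold, 6.57e-07).

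The windows before Nr4a1 and Nr4a2 are shown because each held 4 CRE half-sites, a number found in 0.193% of all windows. Capitals mark the half-sites and, in Nr4a1, an Egr site at positions -60 to -52. The Nr4a1 window is chr15:101266596-101266845 on the plus strand and the Nr4a2 window is chr2:57124004-57124253 on the minus strand.
Nr4a1: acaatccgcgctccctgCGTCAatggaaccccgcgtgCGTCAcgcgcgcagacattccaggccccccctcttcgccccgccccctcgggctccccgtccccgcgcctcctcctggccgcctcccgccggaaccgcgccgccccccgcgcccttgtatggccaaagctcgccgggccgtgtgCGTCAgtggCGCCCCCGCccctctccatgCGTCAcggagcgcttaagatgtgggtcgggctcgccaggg
Nr4a2: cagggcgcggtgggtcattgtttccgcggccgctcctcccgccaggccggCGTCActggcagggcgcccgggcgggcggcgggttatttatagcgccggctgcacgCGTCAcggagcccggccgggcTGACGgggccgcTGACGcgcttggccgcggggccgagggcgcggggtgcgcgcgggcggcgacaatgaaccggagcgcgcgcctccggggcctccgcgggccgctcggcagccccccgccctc
In Nr4a1 the half-sites fell in an upstream pair and a pair near the start, the latter on both sides of the Egr site. In Nr4a2 they lay between positions -200 and -107. Neither window held a full CRE or an NBRE.

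Npas4 was the only member called higher in GFP+ cells, at signals too low to measure. It read 3.15, 3.44, 3.89 and 2.85 in vehicle GFP+ cells against 3.08, 3.44, 3.33 and 3.62 in vehicle GFP- cells. In odor it read 3.03, 3.94, 4.32 and 4.74 in GFP+ cells against 2.69, 2.78, 3.06 and 3.35 in GFP- cells, and the groups overlapped. Every array lay under its floor. The difference was -0.04 ± 0.30 in vehicle (adjusted p = 0.96) and 1.04 ± 0.30 in odor (adjusted p = 0.0253), positive in all 4 odor pools, at 0.34 to 1.39. The call was lost, at a similar difference, without odor pool 2 (1.00, adjusted p = 0.108), 3 (0.96, 0.11) or 4 (0.92, 0.0809) and in a fit to the odor arrays alone (1.04, 0.0505). With values raised to the floor the difference was 0.02 (0.961). The Npas4 window is shown as that of the member called in the opposite direction, with its 2 half-sites in capitals. It is chr19:4989972-4990221 on the minus strand, and 1 TATA box lies at positions -28 to -22.
Npas4: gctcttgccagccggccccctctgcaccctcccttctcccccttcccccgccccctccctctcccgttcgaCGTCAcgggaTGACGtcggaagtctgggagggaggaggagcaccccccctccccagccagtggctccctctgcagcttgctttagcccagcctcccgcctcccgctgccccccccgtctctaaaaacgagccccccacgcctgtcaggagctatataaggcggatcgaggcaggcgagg

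Arc, the synaptic effector, gave no measurable signal in either fraction. Its 16 arrays lay between 4.33 and 5.50, all under the floor, and the fractions overlapped in both treatments. The difference was 0.18 ± 0.23 in vehicle (adjusted p = 0.678) and -0.16 ± 0.23 in odor (0.722). An array under its floor does not show that the transcript is absent.

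Klf4 read 7.52, 8.87, 7.39 and 7.66 in vehicle GFP- cells and 7.90, 9.57, 7.53 and 8.41 in odor GFP- cells, with pool 2 the highest in each treatment. In GFP+ cells it was under the floor on all 8 arrays, at 5.57, 5.49, 4.69 and 4.75 in vehicle and 5.62, 5.65, 4.28 and 5.44 in odor. By the stricter limit 0 of 4 vehicle and 1 of 4 odor GFP- arrays were above background. The difference was -2.74 ± 0.42 in vehicle (at least 2.65-fold lower in GFP+, adjusted p = 0.000104) and -3.10 ± 0.42 in odor (at least 3.08-fold, 2.55e-05). Its window held 1 CRE half-site and 1 Egr site.

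**Figure D2:**
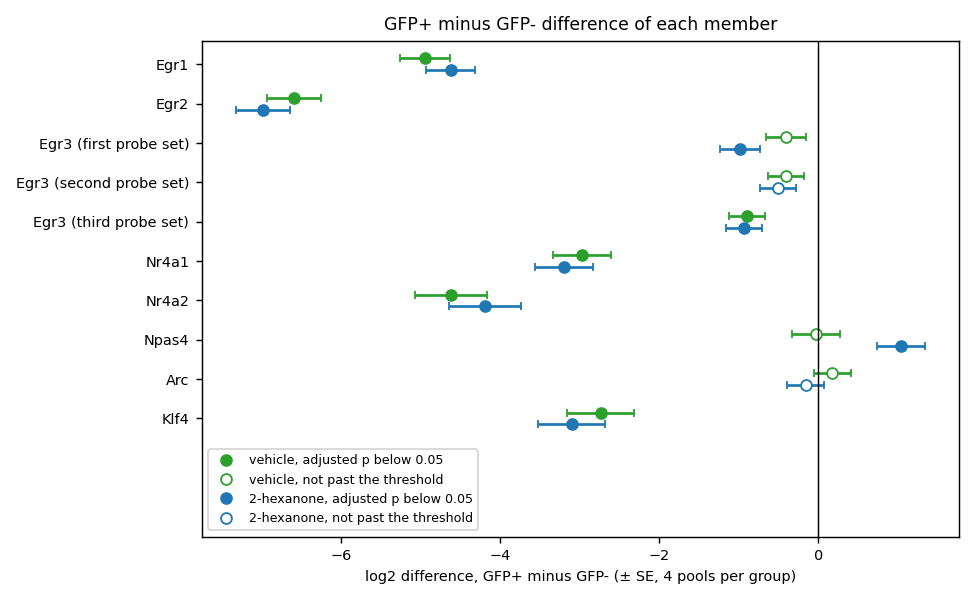
GFP+ minus GFP- log2 difference (horizontal axis) of each member probe set, with its SE, in vehicle (green) and odor (blue). Filled points passed an adjusted p of 0.05. Egr2 lies farthest left, at -6.59 and -6.98, and Npas4 in odor is the only filled point right of 0.

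Leukocyte markers moved with the same contrast. For the counts below, the shares over all probe sets were 9.86% lower and 5.83% higher in vehicle, and 9.56% and 5.29% in odor. All 10 neutrophil markers were lower in GFP+ cells in both treatments, with Lcn2 at -11.96 ± 0.62 and Ngp at -11.27 ± 0.55 in vehicle. Of 10 macrophage and general leukocyte markers 10 were lower in vehicle and 9 in odor, and of 6 lymphocyte markers 5 and 6. Only 6 of the 10 macrophage and general leukocyte markers and 3 of the 6 lymphocyte markers lay above the floor on at least 4 arrays. The other calls in these lists thus rest largely on values under the floor. The summed signal of these 26 markers (log2) was 18.33 to 20.49 in vehicle GFP- cells and 19.49 to 19.85 in odor GFP- cells. In GFP+ cells it was 9.25 to 10.65 and 9.61 to 10.15, where 0 to 3 of the 26 lay above the floor and Ptprc, the common leukocyte antigen, lay under it on all 8 arrays. Microvillous cell markers were lower for 7 of 7 genes in both treatments, sustentacular markers for 6 of 8, immature neuron markers for 5 of 8 in vehicle and 4 of 8 in odor, and basal progenitor markers for 3 of 6. Only 5 of the 7 microvillous and 2 of the 6 basal progenitor markers lay above the floor on at least 4 arrays. Of the mature neuron markers, 0 of 11 were lower and 2 (vehicle) and 1 (odor) were higher. Heat shock genes, which respond to cell stress, were lower for 2 of 6 in both treatments, with Hspa1a at -2.30 ± 0.56 and -1.78 ± 0.56. Hspa1a lay above the floor on 2 of 4 vehicle and 3 of 4 odor GFP+ arrays. The summed heat shock signal overlapped between the fractions, at 15.42 to 16.37 in vehicle GFP- and 14.99 to 16.58 in vehicle GFP+ cells. In odor it was 15.52 to 16.28 and 15.54 to 16.43. This sum mostly follows Hsp90aa1, which averaged 15.86 in vehicle and 15.94 in odor GFP+ cells. Hsph1, the next highest there, averaged 10.98 and 10.59. The median difference of the heat shock list was -0.56 in vehicle and -0.75 in odor. Both measured erythroid markers were lower in both treatments, with a summed signal of 10.02 to 13.20 in vehicle GFP- cells and 10.64 to 11.35 in odor GFP- cells, against 7.67 to 7.99 and 7.19 to 7.75 in GFP+ cells. The part of other cell types and of the cell preparation in the members' differences was not tested.

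Among the 8 GFP- arrays, the level of Nr4a1 rose with that of the leukocyte markers. Against the mean log2 level of the 26 markers, Nr4a1 had a Pearson r of 0.902 (exact permutation p = 0.0005, adjusted over 12 relations 0.0062) and a Spearman rho of 0.81 (exact p = 0.0218, adjusted 0.261). Without the 2 arrays farthest from the median marker level r was 0.925, and within the 4 vehicle and the 4 odor arrays it was 0.998 and 0.954. Nr4a2 gave 0.589 (adjusted exact p = 0.368), 0.293 without the 2 farthest arrays, and 0.959 and 0.545 within the vehicle and the odor arrays. Egr1 gave 0.246, Egr2 0.034, Klf4 0.0467 and the first Egr3 probe set -0.22, each with an adjusted exact p of 0.958. The difference between these correlations was not tested. Against the heat shock genes Nr4a1 gave 0.716 (exact p = 0.0431, adjusted 0.259) and Nr4a2 gave 0.613 (adjusted exact p = 0.368). Without the 2 arrays farthest from the median heat shock level these were 0.437 and -0.239. Other cell types varied over the 8 GFP- arrays too. The summed erythroid signal, like Nr4a1, was lowest in vehicle GFP- pool 1 (10.02) and highest in pool 4 (13.20). Whether the relation of Nr4a1 is particular to leukocyte markers was not tested. These relations were set up after the levels had been seen.

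**Figure D3:**
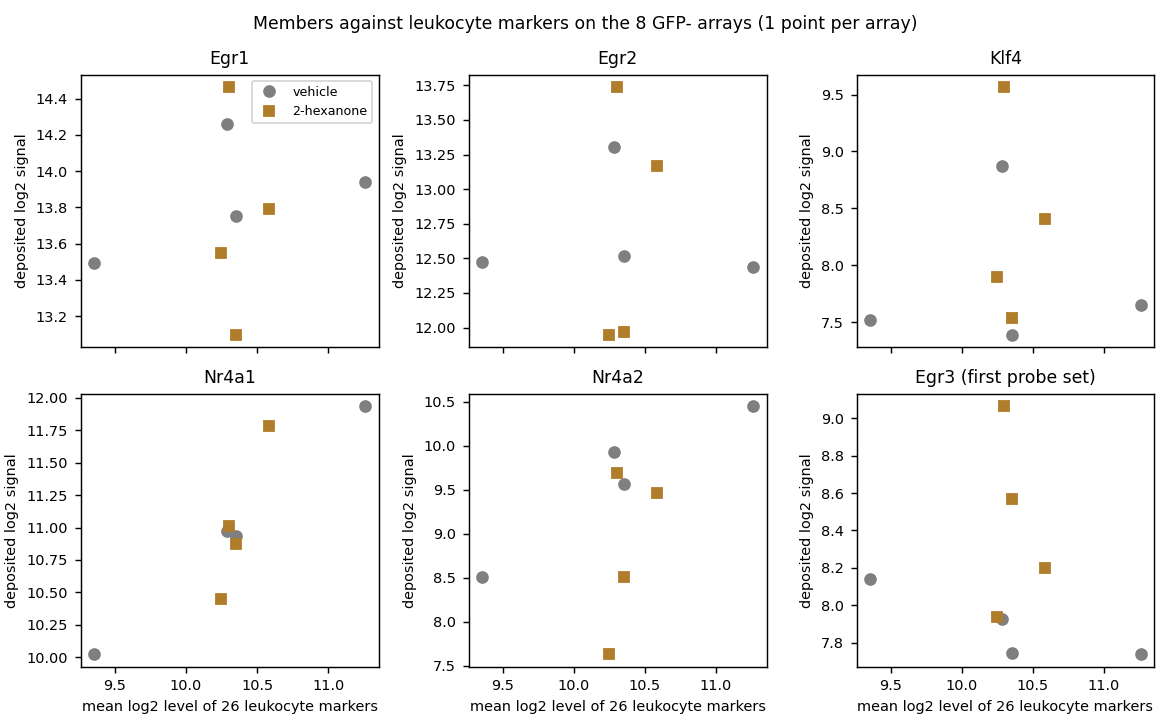
Level of 6 member probe sets (vertical axes, deposited log2 signal) against the mean log2 level of 26 leukocyte markers (horizontal axis) on the 8 GFP- arrays, 4 vehicle (circles) and 4 odor (squares). Nr4a1 rises along the axis (r = 0.902), and r was 0.246 for Egr1, 0.034 for Egr2 and 0.0467 for Klf4.

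The members differed in how closely they varied together. Over deviations from the group means on the 8 GFP- arrays, Egr1 and Klf4 correlated at 0.94, Egr2 and Klf4 at 0.92, Egr1 and Egr2 at 0.88 and Nr4a1 and Nr4a2 at 0.85. Egr1 and Nr4a2 correlated at 0.69, as did Egr2 and Nr4a2, and Nr4a2 and Klf4 correlated at 0.58. Egr1 and Nr4a1 correlated at 0.35, Egr2 and Nr4a1 at 0.30 and Nr4a1 and Klf4 at 0.17. Npas4, under the floor on all 16 arrays, correlated with Nr4a1 at 0.89 and with the third Egr3 probe set at 0.73. Values of this size were thus also reached where a probe set had no measurable signal. Over all 16 arrays Egr1 and Klf4 gave 0.69, Egr1 and Egr2 0.55, Egr1 and Nr4a2 0.53 and Nr4a1 and Nr4a2 0.39. GFP- pool 2 was the highest array of Egr1, Egr2 and Klf4 in each treatment, and GFP- pool 4 was the highest array of Nr4a1. These values describe 8 arrays that share pools, dissections and normalization.

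By level over all 16 arrays, among 9340 candidate genes above the floor on at least 8 arrays, Egr1 was most like Olfr1228 (r = 0.989), Ngp and Cat. Egr2 was most like Adgrg6 (0.991), Plk2 and 1810046K07Rik, and Nr4a1 like Tyrobp (0.983), Mgst1 and Sat1. Nr4a2 was most like Bank1 (0.983), Nr4a3 and Dock2, Klf4 like Ociad2 (0.955), 1810046K07Rik and Kit, and the first Egr3 probe set like Olfr1215 (0.806), Armcx3 and Bach2. Ngp, a neutrophil granule gene, Tyrobp, a myeloid signalling adaptor, and Bank1, a B cell adaptor, are leukocyte genes, and Olfr1228 and Olfr1215 are odorant receptor genes. Over deviations from the group means the nearest gene was C2cd2 for Egr1 (0.832), Tbc1d10c for Egr2 (0.837), Myt1 for Egr3 (0.837), Ncoa3 for Nr4a1 (0.888), Slain1 for Nr4a2 (0.88) and U2af1 for Klf4 (0.866). The first measure is dominated by the step between fractions, and neither carries a test. Nr4a2 and Klf4, under the floor on all 8 GFP+ arrays, met the limit of 8 arrays through GFP- arrays alone. Egr2 was under it on most GFP+ arrays. Part of the deviations of Egr2, Nr4a2 and Klf4 is therefore of background signals.

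The wider pathway was described through lists of related genes. Among 15 genes related to the members by family or partnership, 0 were higher and 4 lower in vehicle, and 1 higher and 4 lower in odor. In vehicle these were Nr4a3, Klf5 (-3.48 ± 0.27, at least 3.89-fold lower), Klf6 (-1.74 ± 0.27, 3.35-fold) and Klf3 (-1.17 ± 0.32). The list median was -0.24 in vehicle and -0.36 in odor, against 0.14 over all probe sets. Egr4 and the Egr co-repressor Nab2 lay under the floor on all 8 vehicle arrays. Of 15 measured upstream factors, 1 was higher and 3 were lower in vehicle, and 0 and 2 in odor, where the shares over all probe sets given above were 5.83% and 9.86% in vehicle and 5.29% and 9.56% in odor. Mef2c, a calcium-responsive transcription factor also expressed in B cells and myeloid cells, was lower by -3.72 ± 0.39 and -3.65 ± 0.39 (at least 2.23-fold and 2.39-fold). Srf differed by -0.08 ± 0.22 and -0.46 ± 0.22 (adjusted p = 0.846 and 0.189), and Creb1 by 0.13 ± 0.27 and 0.12 ± 0.27 (0.81 and 0.824).

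Over all probe sets, 5.83% were higher and 9.86% lower in vehicle, and 5.29% and 9.56% in odor. Among 23 activity-regulated targets, 1 was higher and 11 lower in vehicle, and 2 and 11 in odor. Among those lower, and under the floor on all 8 GFP+ arrays, were Rgs2, a regulator of G protein signalling, at -6.54 ± 0.51 and -6.58 ± 0.51 (at least 7.53-fold and 7.36-fold lower), Plk2, an activity-induced kinase, at -5.74 ± 0.28 and -6.11 ± 0.28 (at least 7.71-fold and 7.23-fold), and Ptgs2, the inducible prostaglandin synthase, at -4.11 ± 0.30 and -4.07 ± 0.30 (at least 2.32-fold and 1.36-fold). Syt4, a vesicle protein gene, went the other way, at 1.47 ± 0.28 (2.77-fold higher in GFP+) and 1.20 ± 0.28 (2.30-fold). Bdnf, the neurotrophin gene, lay under the floor on the arrays of both treatments. Of 18 AP-1 and other immediate early genes, 13 were lower in vehicle and 14 in odor and 0 were higher, with Fos at -4.44 ± 0.26 and -4.70 ± 0.26 (21.7-fold and 26.0-fold lower).

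**Figure D4:**
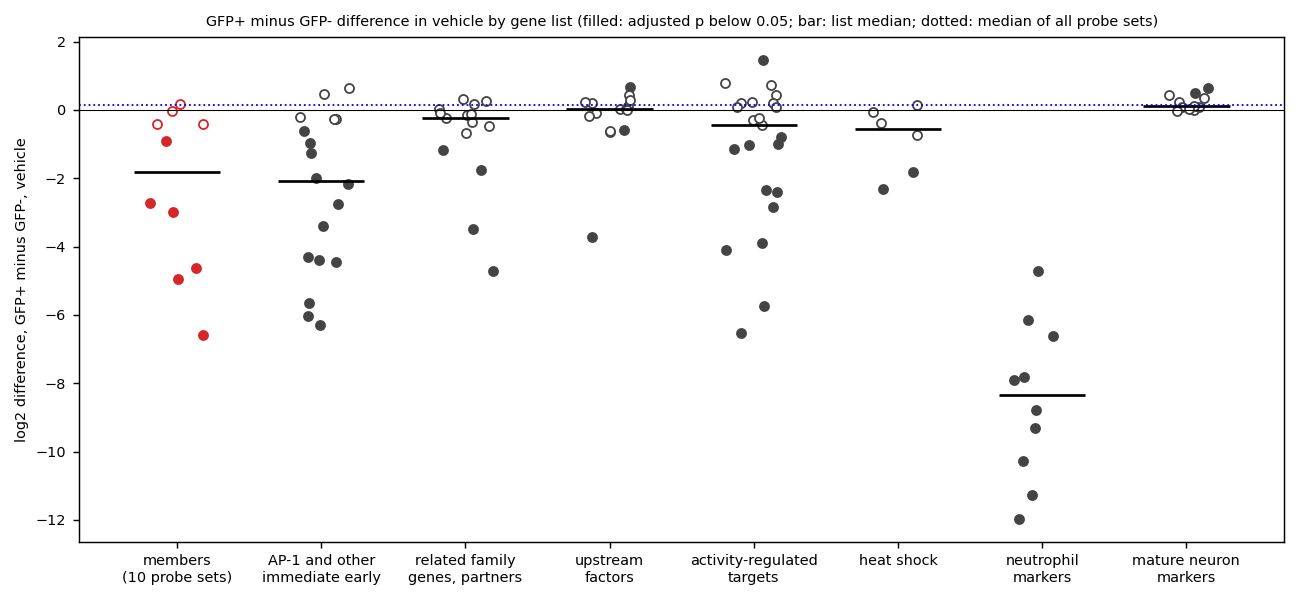
GFP+ minus GFP- log2 difference in vehicle (vertical axis) of every gene of each list (points, filled where adjusted p was below 0.05), with the list median as a bar and the median of all probe sets, 0.14, dotted. The members and the immediate early genes have medians of -1.82 and -2.08, the neutrophil markers -8.34 and the mature neuron markers 0.13.

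Stimulation with 2-hexanone did not shift any member past the threshold. In GFP+ cells 0 of 10 probe sets passed (limma adjusted p = 1 for each), where 2 of all 22206 did (0.00901%) and 869 had an unadjusted p below 0.05. In GFP- cells 0 of 10 passed, and 0 of all (0%), with 547 at an unadjusted p below 0.05. For the change of the sort difference with odor 0 of 10 passed and 2 of all did (0.00901%), with 650 below 0.05 unadjusted.

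In GFP+ cells, Egr1 differed between odor and vehicle by 0.19, with a 95% interval of -0.46 to 0.84, and Nr4a1 by -0.16 (-0.93 to 0.61). In GFP- cells Egr1 differed by -0.14 (-0.79 to 0.51), Egr2 by 0.02 (-0.69 to 0.73) and Nr4a1 by 0.06 (-0.71 to 0.83). Before adjustment, intervals left out 0 for Npas4 in GFP+ cells (0.67, 0.04 to 1.31) and for the first Egr3 probe set in GFP- cells (0.55, 0.02 to 1.09). They also did so for the change of the Npas4 sort difference (1.07, 0.17 to 1.97), and each of these had an adjusted p of 1 by limma. Of the pathway lists, 0 genes passed in these 3 comparisons.

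**Figure D5:**
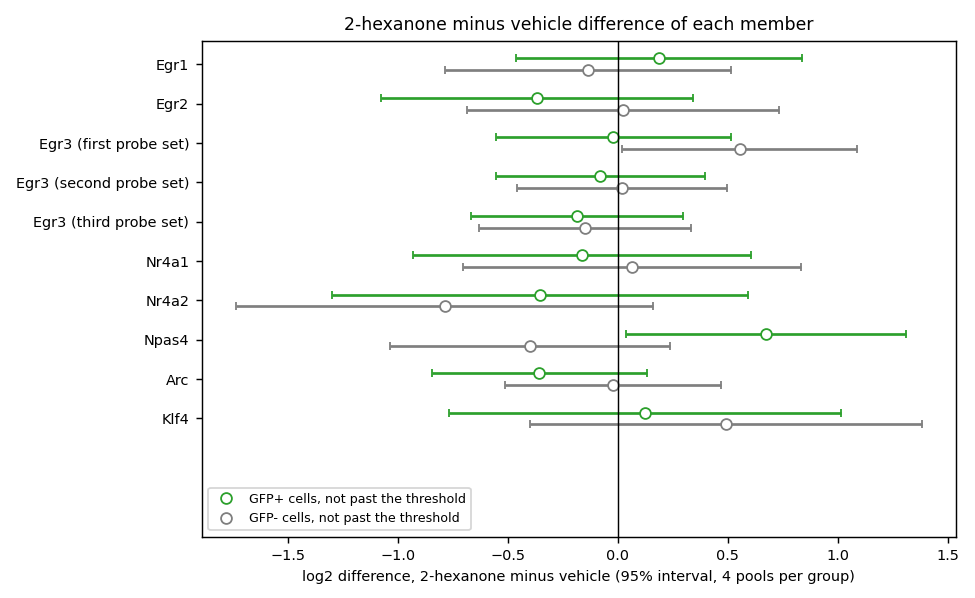
Odor minus vehicle log2 difference (horizontal axis) of each member probe set with its 95% interval, in GFP+ cells (green) and GFP- cells (grey). No point passed the threshold, and 18 of the 20 intervals include 0.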

How the data were processed

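The deposited log2 signal of each probe set came from Affymetrix Expression Console, as the submitters' processing notes name it. Neither its version nor the way probes were summarised is given in the sources used here. Of 28846 rows, 6640 control rows were left out. Of the 22206 probe sets tested, 19572 had 1 gene symbol and 2634 were unnamed here. The highest of 23 background bins was each array's floor. Where the dimmer group lay under it on every array, a fold is a lower bound, with each dim array taken at its floor or its own value, whichever was higher. If both groups were under it, there is no fold.

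R 4.3.3 and limma 3.58.1 (lmFit, eBayes) fitted 4 group means over 16 arrays with no covariate and 5 contrasts, and Benjamini-Hochberg adjusted p below 0.05 was called. The fit was tested on simulated data. Exact permutation tests used scipy 1.17.1. Replicates are pools of different mice, and their number limits the precision. Both fractions of a pool come from the same mice: their deviations correlated at 0.0749 to 0.425 in odor and 0.0136 to 0.352 in vehicle pools. The members and gene lists were chosen with earlier results of these data known. The naming rule took all members, the extreme passing and nearest missing genes of each list, and the 3 genes most like each member. Only part of the list genes so taken is named above. Ptprc, Bdnf and Nab2 were named outside the rule, and Srf and Creb1 whether or not it took them. Listed genes with no probe set were not analysed here.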

Additional observations from a re-analysis of the deposited data

Results flagged for a closer look

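Of 40 groups of 4 arrays tested for a sample far from the others, 2 had one, where chance gives about 1 in 20. In vehicle GFP- cells, pool 2 had an Egr2 level of 13.30, against 12.52 in the nearest pool. In odor GFP+ cells, pool 3 had a Klf4 level of 4.28, against 5.44 in the nearest pool, with all 4 arrays under the background floor.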

How the results depend on the processing

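Over 990 alternative values of single probe sets, 975 stayed on their side of the threshold, 59 of them with a changed sign but no call on either side, while 13 calls were lost with their sign kept, 1 was lost with a changed sign and 1 was gained. The sort calls of Egr1, Egr2, Nr4a1, Nr4a2 and Klf4 held under all 21 alternatives, with the highest adjusted p at 0.00404. The count of members higher in odor, 1 (Npas4), fell to 0 with the lowest 20% of probe sets left out or with a minimum of 4 arrays above the floor, both of which drop its probe set, with the fit to the odor arrays alone, and with values raised to the floor, and ran from 0 to 1 when 1 pool was left out. With values raised to the floor the third Egr3 probe set lost its odor call at 0.0152 (adjusted p = 0.961), the difference between the floors. Its vehicle call was lost when arrays were centred (-0.54, adjusted p = 0.0628) or without vehicle pool 2 (-0.86, 0.0606) or 3 (-0.87, 0.0529), and its odor call without odor pool 3 (-0.61, 0.103). The second gained a vehicle call without vehicle pool 4 (-0.73, 0.0435).

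Centring arrays on their medians moved the median of all sort differences from 0.14 to 0.50 in vehicle and 0.49 in odor, and the share called higher from 5.83% to 40.5% and from 5.29% to 38.4%. The shares called lower were then 7.88% and 7.76%. Quantile normalization gave 8.88% higher and 9.24% lower in vehicle, and 8.35% and 9.05% in odor. With the pool as a random replicate block (consensus correlation 0.171) 19.3% and 18.4% of probe sets were called, and the paired fits changed no member's call. Leaving out both pools numbered 1, chosen after seeing the data, also changed none. Signal over background limits Npas4, Arc, 2 Egr3 probe sets and the GFP+ levels of Egr2, Nr4a2 and Klf4. By the stricter limit from the negative control rows, further levels passed on only part or none of their arrays. These were the first Egr3 probe set, Nr4a2 and Klf4 in GFP- cells, and Egr1 and Nr4a1 in GFP+ cells.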
